A study of Mus musculus with 7 samples.

Results

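5-formylcytosine (5fC) was examined at the genes of the forkhead transcription factors in mouse embryonic stem (ES) cells. The set held the 40 autosomal protein-coding genes of GENCODE release M1 on mm9 whose symbol is Fox, a letter from a to s and a number, out of 21418 autosomal protein-coding genes. Foxf1a was kept with its trailing letter. Foxl1, the neighbour of Foxf1a and Foxc2, is annotated as a pseudogene in that release and was not measured. The rule used no 5fC value.

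Forkhead factors bind DNA through a winged helix domain, and several can open closed chromatin ahead of other factors. The FoxA, FoxC and FoxF proteins direct the formation of endoderm, vessels and lung mesenchyme, the FoxO proteins are switched off by insulin signaling, and Foxd3 and Foxh1 act in the earliest embryonic cells. Many of these genes lie in CpG islands (CGIs). 5fC arises when TET enzymes oxidize 5-methylcytosine and 5-hydroxymethylcytosine, and thymine DNA glycosylase (TDG) excises it.

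The cells were J1, an ES cell line of strain 129S4/SvJae. 3 conditions were compared, with 2 pulldown libraries each. TDG KD cells had been transfected repeatedly with a pool of siRNAs against Tdg and grown without feeder cells. siRNA control cells received a non-targeting siRNA in the same way. Wild-type (WT) cells were not transfected and grew on irradiated embryonic fibroblasts, so feeder cells and transfection cannot be told apart in the comparison of control with WT. 5fC was tagged with biotin through an aldehyde reactive probe, pulled down and sequenced, and 1 genomic input library was the background for every pulldown. The files hold no RNA, so neither the knockdown of Tdg nor the expression of any forkhead gene was analysed here.

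The authors called domains in each library separately with rseg, in bins of 100 bp, and gave every domain the state enriched, background or unconfident and a value, how many more reads per bin the pulldown had than the input on average. Values below are the length-weighted mean of that value over a region minus the mean of the library, per M (mega, as in Mb) uniquely placed reads, and are called excess. The TSS window is 1 kb on either side of the transcription start site (TSS), and the gene body is the whole gene record. A region was called enriched where enriched domains covered 50% or more of it. Depth was 20.4 to 45.9 M reads per pulldown. KD replicate 1 was the shallowest and stood apart, with a mean of -0.277 reads per bin and 504.9 Mb unconfident, against 0.214 to 6.30 Mb in the other 5 libraries. Its values are given with the others throughout, and the main counts that rest on it are also given without it. Titles carry the prefix BHAM (KD replicate 1, control replicate 1 and both WT) or EAR (KD replicate 2 and control replicate 2), a possible batch.

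The letters directly upstream of 5 forkhead genes show how differently their promoters are built. Foxf1a and Foxn2 were chosen as CpG-rich promoters with the highest and one of the lowest 5fC levels of the set, Foxd3 as a gene whose state differed between conditions, and Foxh1 and Foxn1 as CpG-poor promoters with 5fC. Each run is the 150 bp before the TSS on the gene's strand, with CpG dinucleotides in capitals. On mm9 they lie at chr8:123608136-123608285 (plus strand, Foxf1a), chr17:88839901-88840050 (plus, Foxn2), chr4:99322840-99322989 (plus, Foxd3), chr15:76500379-76500528 (minus, Foxh1) and chr11:78200061-78200210 (minus, Foxn1). None overlaps an annotated exon.
Foxf1a: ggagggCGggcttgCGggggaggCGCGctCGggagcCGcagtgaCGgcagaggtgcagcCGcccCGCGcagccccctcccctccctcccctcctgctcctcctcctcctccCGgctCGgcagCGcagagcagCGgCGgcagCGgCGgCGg
Foxn2: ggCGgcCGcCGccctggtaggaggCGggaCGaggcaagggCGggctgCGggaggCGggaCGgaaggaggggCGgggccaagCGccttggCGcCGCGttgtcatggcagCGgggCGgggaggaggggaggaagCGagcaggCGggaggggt
Foxd3: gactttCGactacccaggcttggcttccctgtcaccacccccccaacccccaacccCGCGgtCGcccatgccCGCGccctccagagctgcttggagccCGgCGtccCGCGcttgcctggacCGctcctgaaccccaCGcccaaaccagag
Foxh1: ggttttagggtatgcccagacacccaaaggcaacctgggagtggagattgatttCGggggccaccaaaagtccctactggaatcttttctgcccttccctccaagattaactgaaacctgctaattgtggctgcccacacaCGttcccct
Foxn1: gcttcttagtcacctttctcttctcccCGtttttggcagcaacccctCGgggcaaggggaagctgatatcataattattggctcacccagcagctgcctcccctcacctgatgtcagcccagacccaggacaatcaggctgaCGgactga

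Foxf1a and Foxn2 both have 18 CpGs in this stretch and are 80% and 78% GC, yet the TSS window of Foxf1a was enriched in all 6 libraries and that of Foxn2 in none. Foxd3 has 12 CpGs. Foxh1 has 2 and Foxn1 has 3, and both windows were enriched in 5 of the 6 libraries. These states belong to domains far longer than the stretch and do not measure it alone. Outside WT replicate 1 the enriched domains were 1149.8 to 5476 kb long at Foxf1a, 78.2 to 270 kb at Foxn1 and 28.9 to 195 kb at Foxh1.

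5fC-enriched domains covered the TSS windows of most forkhead genes in WT, control replicate 1 and KD replicate 2. Enriched windows numbered 32 of 40 in KD replicate 2, where 56% of all genes were enriched, and 7 of 40 in KD replicate 1, against 16% of all genes. In the siRNA control 28 windows were enriched in replicate 1, against 45.5% of all genes, and 15 in replicate 2, against 41.7%. WT replicate 1 had 33 enriched windows and WT replicate 2 also 33, against 55.5% and 49.1% of all genes. The forkhead share lay above that of all genes in 5 libraries, by little in KD replicate 1 (17.5% against 16%), and below it in control replicate 2. Of the genes with a CGI at the TSS window, 18.9% and 66.1% were enriched in KD, 51.1% and 46.2% in control, and 66.7% and 56.6% in WT. Beside these the forkhead share was lower in KD replicate 1 and control replicate 2 and higher in the other libraries. No test over the set was made.

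Counting only windows enriched in both replicates of a condition, 7 forkhead genes were enriched in TDG KD (15.1% of all genes), 12 in the siRNA control (34.9%) and 30 in WT (40.3%). The KD count rests on KD replicate 1, in which 18 windows were unconfident and not background (34.1% of all genes). KD replicate 2 by itself gave 32. The control count rests on control replicate 2, without which it was 28. All 6 libraries shared 4 enriched windows (11.2% of all genes), those of Foxc2, Foxf1a, Foxj1 and Foxo6. Foxc2 passed narrowly, with 50.2% of its window enriched in WT replicate 1. Without KD replicate 1 the count was 12 (27.4% of all genes), with Foxa3, Foxd2, Foxi1, Foxk1, Foxk2, Foxn1, Foxn4 and Foxs1 added, and without control replicate 2 it was 7. Only Foxn2, Foxp1 and Foxp2 were enriched in none, 3 of 40 where 27.9% of all genes were.

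The forkhead genes were set beside like families of developmental regulators. Both WT libraries were enriched at 30 of 40 forkhead, 18 of 38 Sox, Gata and T-box and 83 of 133 homeobox genes outside the Hox clusters. For both control libraries the counts were 12 of 40, 17 of 38 and 61 of 133. For both KD libraries they were 7, 9 and 36, and in KD replicate 2 alone 32, 30 and 115. These differences between families were not tested.

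**Figure D1:**
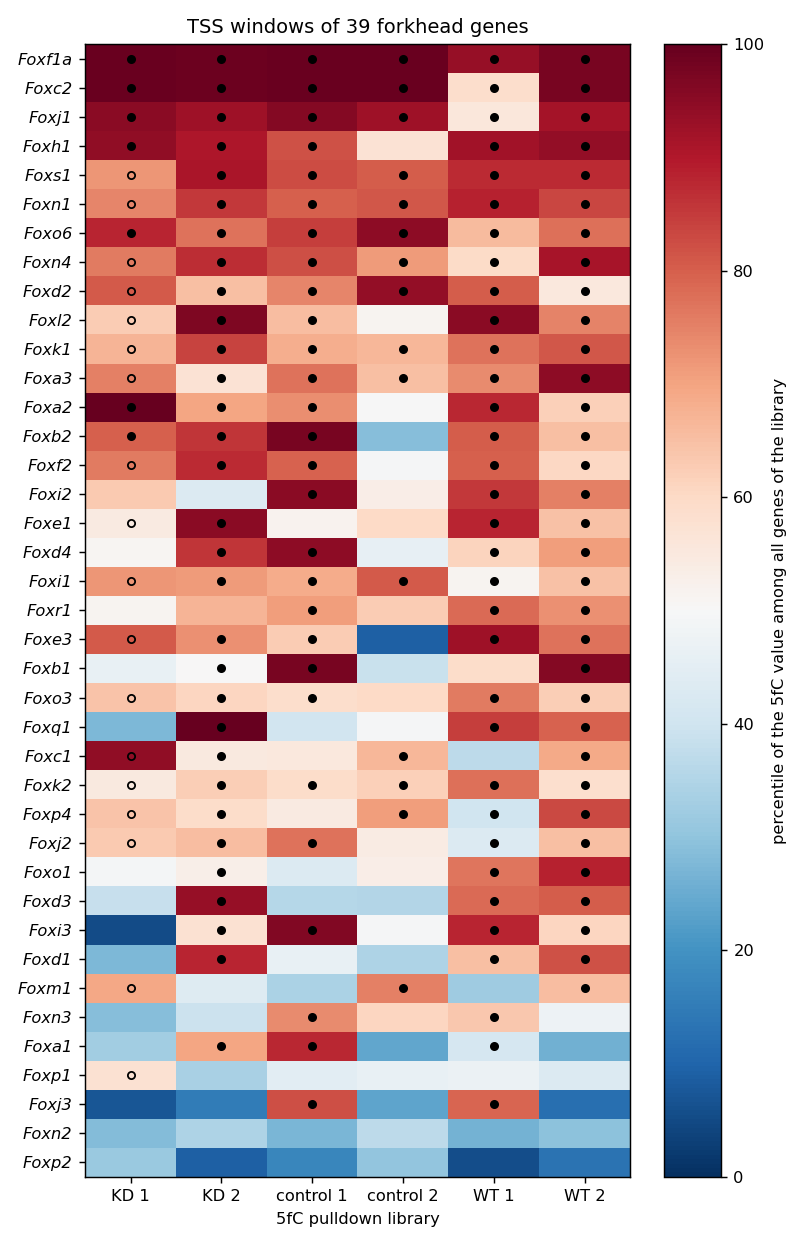
Percentile of the 5fC value of each forkhead TSS window among all autosomal protein-coding genes of the same library (color, 0 to 100), for 39 of the 40 genes (rows, sorted by their mean) and 6 pulldown libraries (columns). Filled circles mark enriched windows and open circles windows at least 50% unconfident. Foxf1a and Foxc2 head the list, and Foxn2 and Foxp2 are low in every library.

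Around the TSS the forkhead genes formed a hump of enriched sequence in 4 of the 6 libraries. At the TSS itself 82.5% of the genes lay in an enriched domain in KD replicate 2, 70% in control replicate 1 and 82.5% in each WT replicate. Among all genes it was 55.9%, 45.1%, 64.5% and 48.7% in the same 4 libraries. At 5 kb upstream the shares were 50% in KD replicate 2, 50% in control replicate 1, 42.5% in WT replicate 1 and 55% in WT replicate 2, and among all genes 38.6%, 38.4%, 31.0% and 39.6%. Both sets were thus higher at the TSS than upstream. KD replicate 1 and control replicate 2 showed no such hump, with 17.5% and 37.5% at the TSS and 12.5% and 35% at 5 kb upstream.

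**Figure D2:**
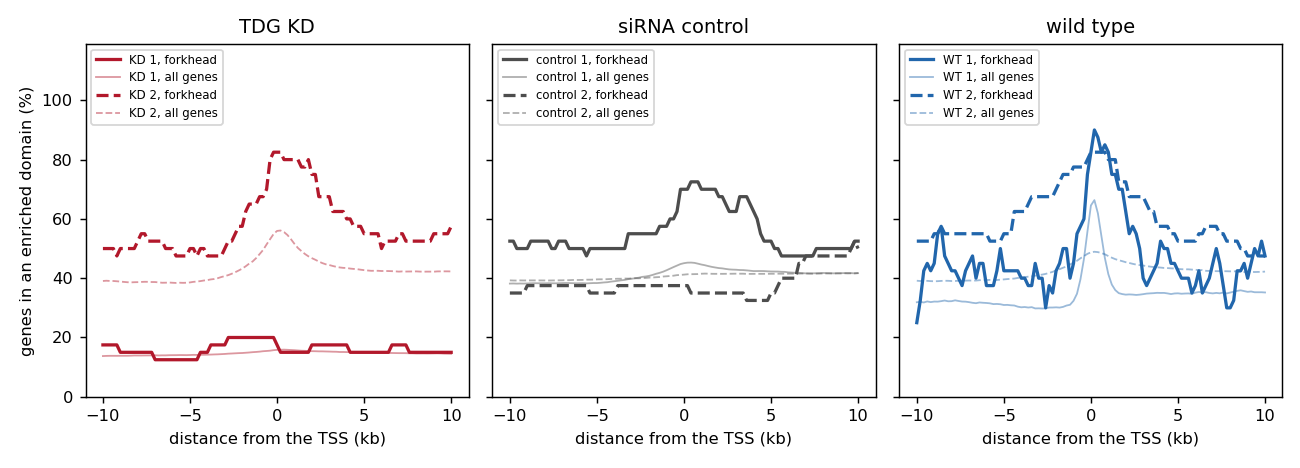
Percentage of genes in a 5fC-enriched domain (y axis) by distance from the TSS (x axis, kb) in TDG KD, siRNA control and WT. Thick lines are the 40 forkhead genes and thin pale lines all autosomal protein-coding genes. Solid lines are replicate 1 and dashed lines replicate 2, and WT replicate 1 peaks at 90% of the forkhead genes 200 bp downstream of the TSS.

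The enriched domains over the forkhead TSSs differed widely in size. Their median width was 355.3 kb over 7 genes in KD replicate 1 and 19.2 kb over 33 genes in KD replicate 2. It was 28.5 kb over 28 genes and 232.7 kb over 15 genes in the control replicates, and 3.3 and 27.2 kb over 33 genes each in the WT replicates. A window value is therefore often the average of a domain much longer than the gene, and it is closest to the promoter in WT replicate 1.

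The median excess of the 40 TSS windows was 0.00693 and 0.0246 reads per bin per M reads in the KD replicates, 0.0160 and 0.0020 in the control replicates and 0.0399 and 0.0211 in the WT replicates. The medians of all genes were 0.0012 and 0.0154 in the KD replicates, 0.0017 and 0.00022 in the control replicates and 0.0233 and 0.0060 in the WT replicates. A forkhead window stood at a median percentile of 63.7 and 70.5 in KD, 73.4 and 55.7 in control, and 76.4 and 71.9 in WT. The set thus lay above the median gene in each of the 6 libraries, least in control replicate 2.

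Gene bodies gave the same counts in 3 libraries and fewer or more in the others. Enriched bodies numbered 7 and 32 of 40 in the KD replicates (15.1% and 46.5% of all genes), 28 and 17 in the control replicates (44.4% and 43.2%), and 27 and 29 in the WT replicates (40.1% and 45.9%). Both replicates were enriched at 7 bodies in KD (14.5% of all genes), 15 in control (37.6%) and 26 in WT (36.1%). Bodies enriched in all 6 libraries numbered 4 (12.3% of all genes), or 12 without KD replicate 1 (30.5%), and 5 were enriched in none (42.6%). 12 forkhead genes have a single exon, and a short gene shares most of its body with the TSS window, so the body is no separate measure for them.

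**Figure D3:**
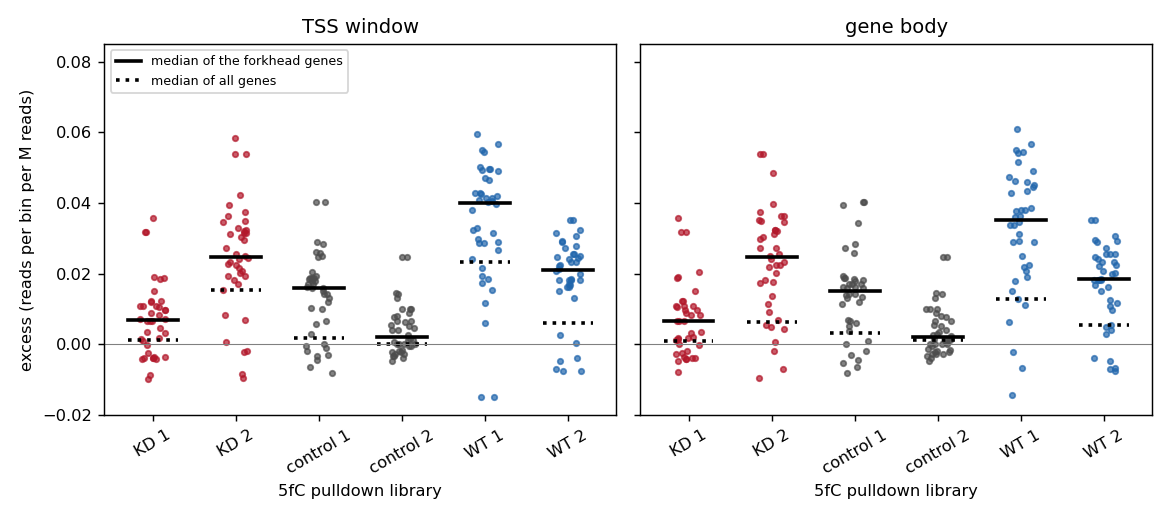
Excess in reads per bin per M reads (y axis) of the 40 forkhead genes in each pulldown library (x axis), for TSS windows on the left and gene bodies on the right. Each point is a gene, solid bars are medians of the forkhead genes and dotted bars medians of all genes. For TSS windows the forkhead median is highest in WT replicate 1, at 0.0399, and lowest in control replicate 2, at 0.0020.

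Foxd3 and Foxh1 are the forkhead genes best known in ES cells and the early embryo. Foxd3 keeps pluripotent cells from differentiating and later acts in the neural crest. Its TSS window had an excess of -0.00246 and 0.0374 in the KD replicates, -0.00291 and -0.00211 in control and 0.0413 and 0.0244 in WT. The window was enriched in KD replicate 2 and both WT libraries and background in both controls and KD replicate 1, where it lay in domains of 47.8 to 331.2 kb. In KD replicate 2 and WT replicate 1 the enriched domain over this TSS was 2.5 kb long, about the size of the single-exon gene.

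Foxh1, the DNA-binding partner of Smad proteins in Nodal signaling, showed another pattern. Its window had 0.0187 and 0.0346 in KD, against 0.0186 and 0.00256 in control, and 0.0544 and 0.0307 in WT. It was enriched in 5 libraries and background in control replicate 2, at the 57.1st percentile there and between the 81.8th and 94.4th in the others. The window holds 45 CpGs, against 157 for Foxd3. Of 10 genes listed as Foxh1 partners and targets of Nodal signaling, 2 and 7 were enriched in the KD replicates, 5 and 4 in the control replicates and 6 and 7 in the WT replicates. All genes were enriched in 16% and 56% of cases in KD, 45.5% and 41.7% in control, and 55.5% and 49.1% in WT, so the counts were near or above these shares.

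Among the FoxO genes, which integrate insulin and stress signals, Foxo1 was enriched in the same 3 libraries as Foxd3. Foxo1 had 0.000863 and 0.0171 in the KD replicates, -0.00102 and 0.00117 in control and 0.0402 and 0.0277 in WT. Foxo3 gave 0.00712 and 0.0208 in KD, against 0.0101 and 0.00403 in control, and 0.0396 and 0.0171 in WT, and was enriched in KD replicate 2, control replicate 1 and WT. Foxo6, active in the brain, was enriched in all 6 libraries, with excess from 0.0144 in control replicate 2 to 0.0330 in WT replicate 1. Of 12 genes listed as FoxO regulators and targets, 2 and 6 were enriched in KD, 3 and 3 in control, and 10 and 7 in WT. Beside the shares of all genes given for the Nodal list, these counts were low in both controls, high in WT replicate 1 and near the share in the others, and no difference was tested.

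The FoxP genes act in lung, heart and brain circuits. Foxp1 and Foxp2 had no enriched window at the start of their longest coding transcript. Foxp1 had 0.00453 and -0.00227 in the KD replicates, -0.000502 and -0.000535 in control and 0.0217 and 0.000403 in WT. Foxp2 had -0.00362 and -0.00963 in KD, against -0.00628 and -0.00267 in control, and -0.0150 and -0.00750 in WT, all below the library mean and in background domains of 125.6 to 4945.3 kb. These windows lie 103.5 and 284.2 kb inside the gene records, and at the start of the record Foxp2 was enriched in KD replicate 2 (0.0411) and WT replicate 1 (0.0519) and at -0.00750 to -0.00267 in the other libraries. Foxp1 was enriched at the start of its record in KD replicate 2 (0.0115) and in no other library. Foxp4 had 0.00723 and 0.0202 in the KD replicates, 0.00589 and 0.00787 in control and 0.0173 and 0.0255 in WT. It was enriched in KD replicate 2, control replicate 2 and WT.

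The widely expressed forkhead genes differed among themselves. Foxm1, which drives the genes of mitosis, had 0.00884 and 0.00832 in the KD replicates, -0.00327 and 0.00898 in control and 0.0118 and 0.0185 in WT, and was enriched in control replicate 2 and WT replicate 2 alone. Foxk1 and Foxk2, repressors linked to autophagy and metabolism, were enriched in every library except KD replicate 1, which was unconfident at both. Foxk1 had 0.00818 and 0.0304 in KD, against 0.0142 and 0.00673 in control, and 0.0406 and 0.0247 in WT. Foxk2 had 0.00342 and 0.0215 in the KD replicates, 0.0102 and 0.00508 in control and 0.0408 and 0.0150 in WT. Of 9 genes listed as FoxM1 targets, 1 and 7 were enriched in KD, 4 and 4 in control, and 6 and 6 in WT, which in control is about the share of all genes (45.5% and 41.7%).

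Foxj3, Foxn2 and Foxn3 were enriched in 2 libraries or none, whereas Foxj2 was enriched in KD replicate 2, control replicate 1 and both WT. Foxn3 takes part in the DNA damage checkpoint of the cell cycle. Foxj3 had -0.00879 and -0.00832 in the KD replicates, 0.0188 and -0.00321 in control and 0.0420 and -0.00767 in WT. Foxn3 had -0.00387 and 0.000814 in KD, against 0.0160 and 0.00450 in control, and 0.0314 and 0.00267 in WT. Both windows were enriched in control replicate 1 and WT replicate 1 only. Foxn2 had -0.00397 and -0.00194 in the KD replicates, -0.00450 and -0.00184 in control and 0.00616 and -0.00398 in WT, and its body, at -0.00450 to -0.00184 in the 6 libraries, was as low as its window.

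The endoderm pioneer factors Foxa1, Foxa2 and Foxa3, which open liver and pancreas enhancers, had enriched windows in 3 to 5 libraries. Foxa2 gave 0.0358 and 0.0243 in the KD replicates, 0.0159 and 0.000174 in control and 0.0493 and 0.0169 in WT. It was enriched in every library but control replicate 2. Foxa1 had -0.00352 and 0.0243 in KD, against 0.0205 and -0.00319 in control, and 0.0184 and -0.00482 in WT, so the replicates of each condition disagreed. Foxa3 had 0.0107 and 0.0193 in the KD replicates, 0.0172 and 0.00628 in control and 0.0379 and 0.0315 in WT.

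The mesoderm genes include Foxf1a and Foxc2, which had the highest mean percentiles of the set. Foxf1a, which forms the vessels and mesenchyme of lung and gut, had 0.0318 and 0.0539 in the KD replicates, 0.0402 and 0.0246 in control and 0.0567 and 0.0352 in WT. Foxc2, which forms lymphatic vessels and valves, had 0.0318 and 0.0539 in KD, against 0.0402 and 0.0246 in control, and 0.0286 and 0.0352 in WT. The values of both genes are equal in 5 libraries because they lie 31.8 kb apart on chromosome 8 in one enriched domain of 2926.2 to 5476 kb in the siRNA libraries and 1149.8 kb in WT replicate 2. In WT replicate 1 Foxf1a had its own domain of 5.1 kb. In that library the TSS of Foxc2 lay in a background domain of 0.8 kb, and 50.2% of its window was enriched.

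Chromosome 8 as a whole had a higher mean excess in the siRNA libraries than in WT. It was 0.00849 and 0.0120 in the KD replicates, 0.0115 and 0.0101 in the control replicates and 0.00475 and 0.00372 in WT. The excess of Foxf1a and Foxc2 did not follow that order, since the values in the siRNA libraries overlapped those in WT for both genes. By percentile Foxf1a stood at the 99.1st to 99.4th percentile in the siRNA libraries, and at the 93.6th and 97.3rd in WT.

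On chromosome 13 Foxq1, Foxf2 and Foxc1 lie within 248.5 kb and did not share one pattern. Foxq1, needed for the hair shaft, had -0.00407 and 0.0584 in the KD replicates, -0.00176 and 0.000136 in control and 0.0464 and 0.0242 in WT, the largest window value of the set in KD replicate 2. Foxf2, which acts in palate, gut and brain pericytes, had 0.0109 and 0.0324 in KD, against 0.0179 and 0.000136 in control, and 0.0425 and 0.0162 in WT. Foxq1 and Foxf2 shared a background domain of 261.4 kb in control replicate 2. Foxc1, which forms the eye and skull, had 0.0186 and 0.0182 in the KD replicates, 0.00669 and 0.00667 in control and 0.0152 and 0.0199 in WT. It was enriched in KD replicate 2, control replicate 2 and WT replicate 2.

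The other mesoderm genes were enriched in 3 to 5 libraries. Foxd1, which marks the kidney stroma, was enriched in KD replicate 2 and both WT. Foxd2, of the kidney and face, and Foxs1, found in pericytes and sensory neurons, were enriched in all but KD replicate 1, where both windows were unconfident.

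In the nervous system group Foxb1, of the hypothalamus and mammillary bodies, had -0.000239 and 0.0154 in KD, against 0.0290 and -0.00166 in control, and 0.0287 and 0.0325 in WT, highest in control replicate 1 and both WT.

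Foxb2 and Foxd4, less studied genes, were enriched in KD replicate 2, control replicate 1 and WT, and Foxb2 also in KD replicate 1. Foxn4, which makes retinal amacrine and horizontal cells, had 0.0109 and 0.0322 in KD, against 0.0187 and 0.00803 in control, and 0.0289 and 0.0290 in WT, and was enriched in all but KD replicate 1. Of these 4 genes Foxn4 was the only one enriched in control replicate 2 (41.7% of all genes). All 4 were enriched in KD replicate 2 (56%).

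The genes of surface ectoderm, eye, ear and thyroid were enriched in both WT libraries without exception, 7 of 7, against 40.3% of all genes. In KD replicate 2 it was 6 of them (56% of all genes), and in KD replicate 1 none (16%). In control replicate 1 it was 5 (45.5% of all genes), and in control replicate 2 it was 2 (41.7%), Foxi1 and Foxn1. Foxi1 serves the inner ear and kidney, and Foxn1 makes the thymus epithelium and hair. Foxe1, of the thyroid, had 0.00330 and 0.0395 in KD, against 0.00281 and 0.00408 in control, and 0.0496 and 0.0182 in WT. Foxe3, of the lens, had 0.0122 and 0.0256 in the KD replicates, 0.0121 and -0.00469 in control and 0.0549 and 0.0232 in WT. Foxi3, which acts in placodes, teeth and hair, ranged from -0.00972 in KD replicate 1 to 0.0496 in WT replicate 1, and Foxi2 from 0.00118 in control replicate 2 to 0.0470 in WT replicate 1.

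Foxj1, the master gene of motile cilia, was enriched in every library, with 0.0190 and 0.0364 in KD, against 0.0259 and 0.0133 in control, and 0.0266 and 0.0293 in WT. Foxl2, which maintains the ovary, had 0.00663 and 0.0421 in the KD replicates, 0.0133 and 0.000566 in control and 0.0594 and 0.0223 in WT. Foxr1, expressed in germ cells, was enriched in control replicate 1 and both WT only.

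5 forkhead TSS windows were enriched in KD replicate 2 and in both WT libraries and in neither control, those of Foxd1, Foxd3, Foxe1, Foxo1 and Foxq1. That is 12.5% of the forkhead genes, against 3.16% of all genes (669 of 21163). In KD replicate 1 none of the 5 was enriched, and 4 were background and Foxe1 unconfident. This grouping was chosen after the values were seen, and its difference from all genes was not tested.

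TDG KD was set against the siRNA control, which asks where loss of the glycosylase moves 5fC. No forkhead gene passed the test, and the direction differed between the 2 pairs of libraries. Excess is taken relative to the mean of each library. A rise or fall shared by the whole genome therefore cannot show in this comparison or in that of control with WT. Whether the total level at these genes changed in KD was not tested. In limma, with all 6 libraries in one fit and Benjamini-Hochberg adjustment over 21163 genes, 0 TSS windows were called (0% of all genes), and 169 windows, 0 of them forkhead, had an unadjusted p under 0.05. The adjusted p was 0.9997 for each of the 40 genes. For gene bodies 0 were also called (0%), with 275 at an unadjusted p under 0.05 and 0 of them forkhead. With 2 libraries against 2 an exact permutation test of a single gene cannot go below p = 0.3333.

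Within the EAR prefix 34 of 40 forkhead windows were higher in KD than in control, with a median difference of 0.0211. Within the BHAM prefix 27 of 40 were lower, with a median difference of -0.00624. Among all genes 63.0% were higher in KD within EAR and 36.5% within BHAM. Ranked as percentiles of their library, only 23 of 40 forkhead windows were higher in KD within EAR, with a median difference of 4.32 points, and 19 of 40 within BHAM, with a median of -1.02 points. The difference between the group medians, 0.0158 ± 0.0125 in KD and 0.0090 ± 0.0099 in control (SD, n = 2 each), was 0.00680, smaller than the spread between replicates. It was 0.0226 within EAR and -0.00904 within BHAM.

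**Figure D4:**
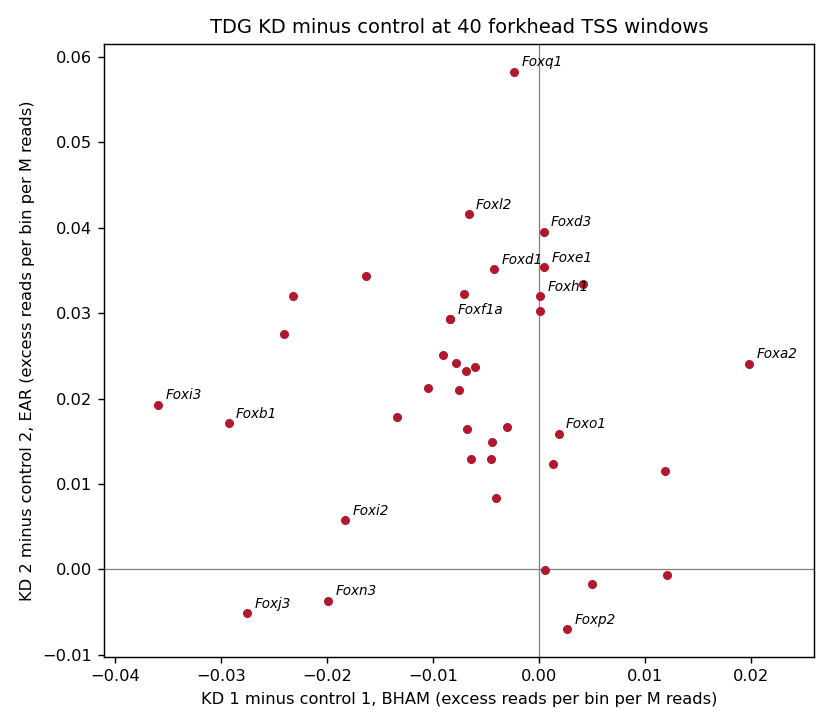
TDG KD minus siRNA control at the TSS windows of the 40 forkhead genes, in reads per bin per M reads, within the BHAM prefix (x axis) and the EAR prefix (y axis). Each point is a gene, and Foxf1a and Foxc2 share one. Most points lie above 0 on the y axis and left of 0 on the x axis, and Foxq1 lies highest, at 0.0583.

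Both KD libraries lay above both control libraries at 5 forkhead windows, among them Foxa2, Foxh1, Foxe3 and Foxc1, where 10.9% of all genes did so. They lay below at 2, Foxj3 and Foxn3, where 12.7% of all genes did so. Without KD replicate 1, KD replicate 2 lay above both controls at 31 (56.9% of all genes) and below both at 4 (31.1%). Windows above numbered 21 without control replicate 1 and 11 without control replicate 2. Windows below numbered 11 without KD replicate 2 and 5 without one or the other control. The share of all genes was not counted for these, and 1 library separates from 2 more readily than 2 from 2. Among windows with both KD libraries on one side of both controls, the largest difference was 0.0220 ± 0.0151 (SE) for Foxa2. For Foxh1 it was 0.0161 ± 0.0153. For Foxj3 it was -0.0163 ± 0.0136 and for Foxn3 -0.0118 ± 0.0106. Foxa2 was higher in KD within both prefixes, by 0.0198 and 0.0241, whereas Foxh1 was level within BHAM, at 0.00013.

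The siRNA control was set against WT. Forkhead windows were lower in the control in 36 of 40 cases, and none passed the test. Of all genes 77% were lower in the control, with a median difference of -0.0116, against -0.0174 for the forkhead windows. Both control libraries lay below both WT libraries at 25 forkhead windows, against 44.3% of all genes, and above at 1, Foxp2, against 12.8%. With one of these 4 libraries left out the windows above numbered 2 to 5, most without WT replicate 1, and the share of all genes was not counted. limma called 0 windows (0%). Its unadjusted p was under 0.05 at 1529 windows (7.22% of all genes), among them 4 of 40 forkhead windows (Foxo1, Foxd3, Foxe3 and Foxd1). The lowest limma adjusted p of a forkhead window was 0.463. For bodies 0 were called (0%), with 2163 (10.2% of all genes) at an unadjusted p under 0.05, among them 5 of 40 forkhead bodies. The lowest limma adjusted p of a forkhead body was 0.328.

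The largest differences of control from WT were -0.0361 ± 0.0183 (SE) for Foxq1, -0.0354 ± 0.0139 for Foxd3 and -0.0354 ± 0.0144 for Foxe3. Foxp2 was at 0.00678 ± 0.00511. The group medians of the forkhead windows were 0.0090 ± 0.0099 in control and 0.0305 ± 0.0133 in WT (SD, n = 2 each), a difference of -0.0215. EAR has no WT library, so the comparison cannot be made within that prefix. Within BHAM, with control replicate 1 as the only control library, the difference of the medians was -0.0145.

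WT replicate 2 decided these counts. Without it limma called 5590 windows, 5 of them forkhead (Foxd3, Foxe3, Foxj3, Foxo1 and Foxp1, each lower in control), and 5653 bodies, 12 of them forkhead. Without another library it called at most 37 windows and 185 bodies, and 0 of them forkhead. Without WT replicate 2 the share called was lower among forkhead windows than among all genes, and for bodies it was close to all genes. These shares were not tested. WT replicate 1, when alone, is assumed to vary like the other groups. It is the deepest library and the one with the shortest domains, and the part of either in the counts was not tested.

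Most forkhead promoters are CpG-rich. A CGI, here 200 bp or more of sequence above 50% GC with an observed to expected CpG ratio above 0.6, touched 36 of 40 windows (90%), against 68.8% of all genes. The median window held 136 CpGs, against 62. The 4 windows without a CGI were those of Foxp2, Foxn1, Foxk2 and Foxn3, and 2 of these, Foxn1 and Foxk2, were enriched in 5 libraries. A stricter island (500 bp, at least 55% GC, ratio at least 0.65) touched 32 windows (80%), against 56.1% of all genes. It also left out Foxs1, Foxp1, Foxi1 and Foxh1.

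Among the forkhead genes CpG number and 5fC were only loosely related. Across the 40 windows Spearman's rho of CpG number with excess was 0.0783 and 0.174 in KD, -0.0760 and -0.0394 in control, and 0.165 and 0.0381 in WT. Across all genes it was 0.146 and 0.392 in KD, 0.222 and 0.160 in control, and 0.481 and 0.312 in WT. Pearson's r across the forkhead genes lay between -0.0148 and 0.278. Genes of one library share its depth and domains and are not replicates, so these are descriptions.

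Grouped by CpG number, the 17 forkhead windows with 150 or more CpGs were enriched in 3 and 15 cases in KD, 10 and 5 in control, and 15 and 14 in WT. Of all genes in that class 18.8% and 68.6% were enriched in KD, 41.8% and 35.2% in control, and 79.5% and 51.0% in WT. The 11 windows with fewer than 100 were enriched in 1 and 6 cases in KD, 9 and 4 in control, and 9 and 8 in WT, against 14.5% and 50.7%, 44.3% and 41.4%, and 47.7% and 46.1% of all genes in the class. Foxn2, with 183 CpGs and 65% GC, is the CpG-rich window that stayed low in every library. In contrast to Foxn2, the windows of Foxo1 (215 CpGs), Foxf1a (206) and Foxl2 (190) were enriched in 3, 6 and 4 libraries.

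**Figure D5:**
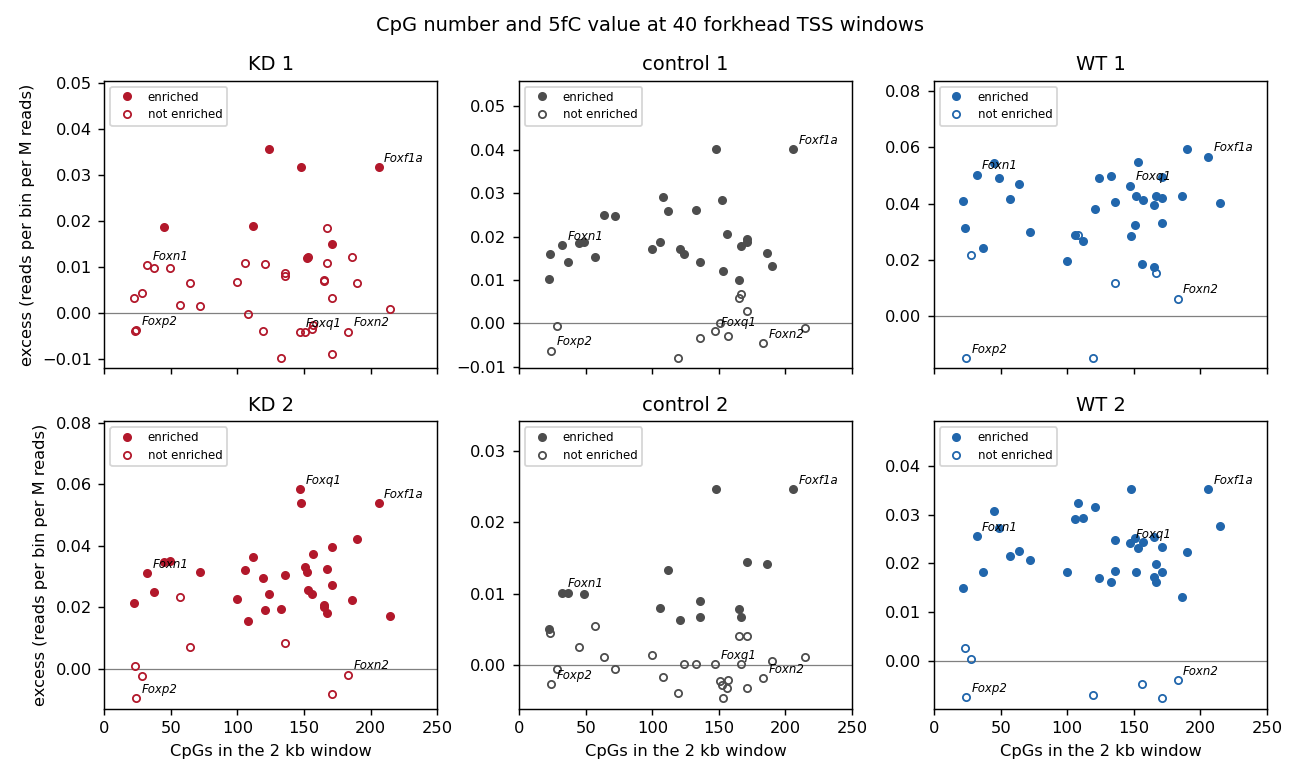
CpG number of the 2 kb TSS window (x axis) and excess in reads per bin per M reads (y axis, with its own range in each panel) of the 40 forkhead genes in each pulldown library. Filled points are enriched windows and open points are not. Foxn2 (183 CpGs) lies near or below 0 in the KD and control panels, and Foxn1 (32 CpGs) lies among the enriched points in all but KD replicate 1.

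The forkhead core motif TGTTTAC, searched on both strands in the 1 kb upstream of the TSS, was found at 6 of 40 forkhead genes (15%), against 12.2% of all genes. TGTTTAT was found at 6 (15%), against 19.6%. A match is only a run of letters.

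Within longer forkhead genes the TSS window and the body were compared at the 19 genes of at least 5 kb. The window lay above the body in 2 and 7 of 19 genes in KD, 7 and 3 in control, and 12 and 5 in WT, and in many cases one domain covered both. Of all genes that long, the window lay above in 18.0% and 33.7% in KD, 21.0% and 11.4% in control, and 64.1% and 23.3% in WT.

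By the mean over the 6 libraries Foxj3, Foxo1 and Foxk2 had the largest excess of window over body. For Foxj3 the window minus body difference was -0.000998 and -0.00142 in KD, 0.0241 and -0.000625 in control, and 0.0487 and -0.00113 in WT, so its mean rests on control replicate 1 and WT replicate 1. For Foxo1 it was -0.000978 and 0.0164 in KD, -0.00207 and 0 in control, and 0.0292 and 0.0247 in WT. For Foxk2 it was 0 and 0.0166 in KD, 0.00424 and 0 in control, and 0.0279 and 0.00955 in WT. In Foxo1 and Foxk2 the window lay above the body in KD replicate 2 and both WT libraries. Foxm1, Foxp4 and Foxn4 had the largest excess of body over window. Foxm1 was at 0 and -0.0150 in KD, -0.0191 and 0 in control, and -0.0170 and 0 in WT, and Foxp4 at -0.00114 and 0 in KD, -0.0111 and 0 in control, and -0.0214 and 0 in WT. Foxn4 was at -0.0320 in WT replicate 1 and at 0 in the other libraries, where one domain covered window and body. Foxo3 was the only gene of the 19 with the window above the body in all 6 libraries, by 0.00162 to 0.0205.

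Exons of these 19 genes lay above their introns in 17 genes in WT replicate 1, with medians of 0.0368 for exons and 0.0185 for introns. In the other libraries exons were higher in 4 to 8 genes and lower in 2 to 7, and the rest lay in one domain. The share of all genes with exons above introns was not counted. Whether the count in WT replicate 1 is particular to forkhead genes was therefore not tested.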

How the data were processed

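5fC pulldown and input reads were single-end Illumina reads. The authors aligned them to mm9 with BWA (0.6.1 in the submitters' processing notes), kept reads with a mapping quality of at least 15 and ran rseg on each library against 1 input library in 100 bp bins. The deposited value of a domain is a score, its average surplus of pulldown over input reads in a bin, which is not depth scaled. Taking off the library mean leaves local input differences, which weigh more in a shallow library. Read counts per region were not used, so no counting interval is given. Depth, from the study's run table, was 20.4 to 45.9 M reads per pulldown and 26.5 M for the input.

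Regions came from GENCODE M1 and the mm9 sequence, and the start was that of the protein-coding transcript with the longest coding sequence. 21163 TSS windows and 21180 gene bodies were covered by all 6 libraries. Differences were fitted with limma 3.58.1 in R 4.3.3 (trend, condition as the only term, two-sided, Benjamini-Hochberg over all genes, threshold 0.05). Other steps used Python 3.11.15, NumPy 2.4.6, SciPy 1.17.1, pandas 2.3.3 and Matplotlib 3.10.9. On data simulated for KD minus control at the TSS windows, 200 of 200 changed genes were recovered with 11 false calls. The simulated shift was many times the simulated noise, which was independent and equal in all libraries, with no prefix effect and no outlying library. The simulation thus checks the code and does not measure the power to find changes in these libraries.

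The 40 genes, the role lists and the tests were chosen with earlier results of these data known. 1 member of the set is counted but its own values are not reported here. Values in all libraries are given for well known members, the 3 highest and 3 lowest by mean TSS percentile, up to 3 in each direction with non-overlapping groups for both contrasts, and 3 in each direction for window minus body. Labels give no replicate numbers, and prefixes were tried as a block. Deviations from the group means of libraries that share a prefix correlated at -0.290 for TSS windows and -0.519 for bodies. The study calls its replicates biological, and their numbers here follow the order of deposit. The p-values measure only the spread between these libraries. Alternatives were other windows, starts, scalings and limma settings, and each library left out in turn. Expression, 5mC and 5hmC were not analysed here.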

Additional observations from a re-analysis of the deposited data

How the results depend on the processing

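With 2 libraries a condition, the counts of calls depended on the setting. Under the alternatives 311 values stayed within 1.5 times the count, within the replicate spread or on their side of the threshold. Beyond these limits 50 values moved, 1 reversed and 2 became stronger. Of 28 differences between forkhead medians 5 changed sign, 3 of them within the replicate spread. When either replicate sufficed, the enriched forkhead TSS windows numbered 32 for KD and 31 for control, and the share of all genes was not counted. With one library of the condition left out they numbered 7 to 32 for KD (16% to 56% of all genes). For control they then numbered 15 to 28 (41.7% to 45.5%). For KD minus control, limma called 2 TSS windows when values were not divided by depth, 10 relative to the median of all genes, 5 with the 4 siRNA libraries and 48 with the prefix as replicate block on these, 0 of them forkhead, and 0 to 17 with one library left out. The gene bodies called numbered 1 when counted from 1 kb downstream, 154 with the 4 siRNA libraries (1 forkhead) and 62 with the replicate block, and 0 to 179 with one library left out (0 to 1 forkhead). For control minus WT the TSS windows called numbered 109 relative to the median of all genes and 0 to 5590 with one library left out (0 to 5 forkhead). Bodies numbered 2 relative to the median, 44 from 1 kb downstream, 1 without the trend and 0 to 5653 with one library left out (0 to 12 forkhead). Among the genes named by a difference, Foxp2 reversed for control minus WT at the start of its gene record (-0.0267, limma adjusted p = 0.467), where another promoter is measured. Foxd3 (-0.0439, limma adjusted p = 0.0414) and Foxe3 (-0.0512, limma adjusted p = 0.0262) passed only without WT replicate 2. The difference of the forkhead medians between KD and control was -0.00904 within BHAM and 0.0226 within EAR for TSS windows, and -0.00839 and 0.0227 for bodies. Without KD replicate 2 it was -0.00205 for TSS windows and -0.00184 for bodies, and without control replicate 2 -0.000183 for TSS windows. In alternatives chosen after seeing the data, with one library left out, 4 to 12 forkhead windows and 4 to 12 bodies were enriched in every library, KD lay above control at 6 to 31 windows and below at 4 to 11, and control lay above WT at 2 to 5 and below at 26 to 35. The cause of these shifts was not tested. For the counts enriched in every library and the counts above or below, shares of all genes were taken only without KD replicate 1.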
